A study of Saccharomyces cerevisiae with 28 samples.

Results

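The open reading frames (ORFs) described here are the 1279 nuclear ORFs that the authors listed in their full table of 6692 ORFs but not in their smaller table, which held 5385 nuclear ORFs. They were chosen by name alone, as every row of the full table whose identifier is absent from the smaller table and whose chromosome is not the mitochondrial one. Of the 1279, 631 had a gene of the same name with a coding sequence in the RefSeq annotation of assembly R64, 102 of them with a gene symbol. The other 648 had none. All annotated members were protein-coding genes there, so none of the 631 was a pseudogene. The match required a coding sequence, so a pseudogene without one would be counted among the 648.

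Poly(A)+ RNA had been sequenced from 28 libraries of budding yeast (Saccharomyces cerevisiae, BY4741, a MATa haploid of the S288C background). The strains carried H3H113N, a histone H3 allele with asparagine in place of a histidine, or wild-type H3, and the series title calls the H3-H4 tetramer a copper reductase. The groups were H3H113N and WT in the rich glucose medium YPD (2 libraries each), H3H113N and WT in YPEG, a medium with ethanol and glycerol (2 each), H3H113N and WT in synthetic complete medium, SC (3 each), H3H113N without CTR1 and its parent without CTR1 in YPD (2 each), H3H113N without CCS1 and its parent without CCS1 in SC (2 each) and in SC without lysine, SC-lys (2 each), and the same 2 strains without CCS1 in SC-lys with 75 µM CuSO4 (1 each). CTR1 is the high-affinity importer of copper at the cell surface, and CCS1 the chaperone that hands copper to superoxide dismutase. YPD and YPEG cultures started at an OD600 of 0.2 and SC cultures at 0.05, while SC-lys cultures started at 0.4 and were kept for 24 h. The labels call growth very slow in SC-lys and in the H3H113N strain without CCS1 with copper, exponential elsewhere, and say that strains often differed in time in culture. The labels do not say whether libraries of a group came from separate cultures or clones, so the p-values measure only the spread between these libraries.

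Yeast gene lists hold several kinds of ORF that summary tables often drop. Dubious ORFs are open frames named from the sequence alone, and many lie across a better supported gene, often on its other strand. Ty elements are retrotransposons that move through an RNA copy, their gag and pol ORFs exist in many near-identical copies, and Y' elements are repeats next to the telomeres that encode a helicase. Small annotated ORFs of unknown function make up most of the rest.

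Library totals ran from 1168159 to 6738018 counts. The 14 libraries of YPD and SC-lys were made with one kit and the 14 of YPEG and SC with another, so kit and medium cannot be told apart between YPD or SC-lys and the other media, while YPEG and SC share a kit. All 6 MATa markers were read at 18.7 RPKM (reads scaled to ORF length and to the library's counted reads) or more in each library, and the 4 MATalpha markers at 43.3 RPKM or less, with MF(ALPHA)1 at 21.6 or less. CTR1 and CCS1 had at most 1 read in any library labelled as lacking them. Replicate 1 of YPD stood apart, in H3H113N and in WT, for ORFs of the ribosomal DNA.

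Positions show what kind of ORF was left out. Of the 1279, 342 lay over at least 50% of their length inside an ORF of the smaller table, 314 of them on its opposite strand and 28 on the same strand. A further 121 overlapped such an ORF by less than 50%, and 64 overlapped only some other annotated gene. There were 89 Ty ORFs, 5 Y' helicase ORFs and 5 ORFs within ribosomal RNA genes. No overlap was found for 476 annotated and 78 unannotated ORFs, and 99 could not be given a single place.

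Stretches of 4 left-out ORFs are printed to show the main kinds, all from the R64 genome and on the coding strand of the named ORF. The first is the start of YAL037C-B (chrI:73211-73300, minus strand), the left-out ORF of highest level, in which capitals mark bases that also belong to CDC19, the pyruvate kinase gene, read on the other strand. The second is the end of YPR077C (chrXVI:697131-697220, minus strand), the left-out ORF called in most H3H113N comparisons, with capitals where it shares bases with YPR078C. The third is the whole of YDR524C-B (chrIV:1489598-1489798, minus strand), the highest one that overlaps nothing, and the fourth the start of YMR057C (chrXIII:388641-388730, minus strand), an unannotated ORF free of overlap. In these last ones capitals mark the start codon and, for YDR524C-B, the stop codon.
YAL037C-B: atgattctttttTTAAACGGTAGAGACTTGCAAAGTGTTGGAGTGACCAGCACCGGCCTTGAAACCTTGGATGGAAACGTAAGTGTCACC
YPR077C: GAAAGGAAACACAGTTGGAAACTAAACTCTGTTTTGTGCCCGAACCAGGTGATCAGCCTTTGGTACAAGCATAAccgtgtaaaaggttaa
YDR524C-B: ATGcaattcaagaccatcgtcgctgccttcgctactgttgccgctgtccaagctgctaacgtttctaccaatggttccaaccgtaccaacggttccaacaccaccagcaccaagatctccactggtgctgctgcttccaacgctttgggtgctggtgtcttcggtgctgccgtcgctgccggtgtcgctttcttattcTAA
YMR057C: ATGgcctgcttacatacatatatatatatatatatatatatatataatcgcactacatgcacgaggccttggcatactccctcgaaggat

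As a class the left-out ORFs were short and lower than the rest, but they were not silent. Their median length was 369 bases, against 1254 bases for ORFs of the smaller table. The median of their mean RPKM over the 28 libraries was 26.9 (quartiles 7.87 and 64.1), against 53.5 (quartiles 29.0 and 112) for the smaller table. No left-out ORF lacked reads in all 28 libraries, and 933 of them (72.9%) had a read in every library, against 98.0% of the smaller table. A mean above 100 RPKM was reached by 224 left-out ORFs (17.5%), against 28.3% of the smaller table. In single libraries the median RPKM of left-out ORFs ran between 12.2 and 32.4, which was 0.356 to 0.557 of the median of the smaller table in the same library.

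The level depended on the kind of ORF. The 342 ORFs that lay mostly inside another ORF had a median of 48.8 RPKM, near that of the smaller table, and 320 of them were read in all libraries. Those overlapping by less than 50% had a median of 12.3 RPKM, and those overlapping another annotated gene only had 11.2 RPKM. The 476 annotated ORFs without overlap had a median of 18.0 RPKM, and the 78 unannotated ones without overlap were lowest, at 3.03 RPKM, with 20 read in every library. Ty ORFs had a median of 147 RPKM, but in all 89 fewer than 90% of the 50-base windows, the read length, were unique in the genome, so copies share reads and their separate levels are uncertain. The 102 annotated ORFs with a symbol had a median of 34.7 RPKM, against 21.2 RPKM for the 529 annotated ones without a symbol.

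**Figure D1:**
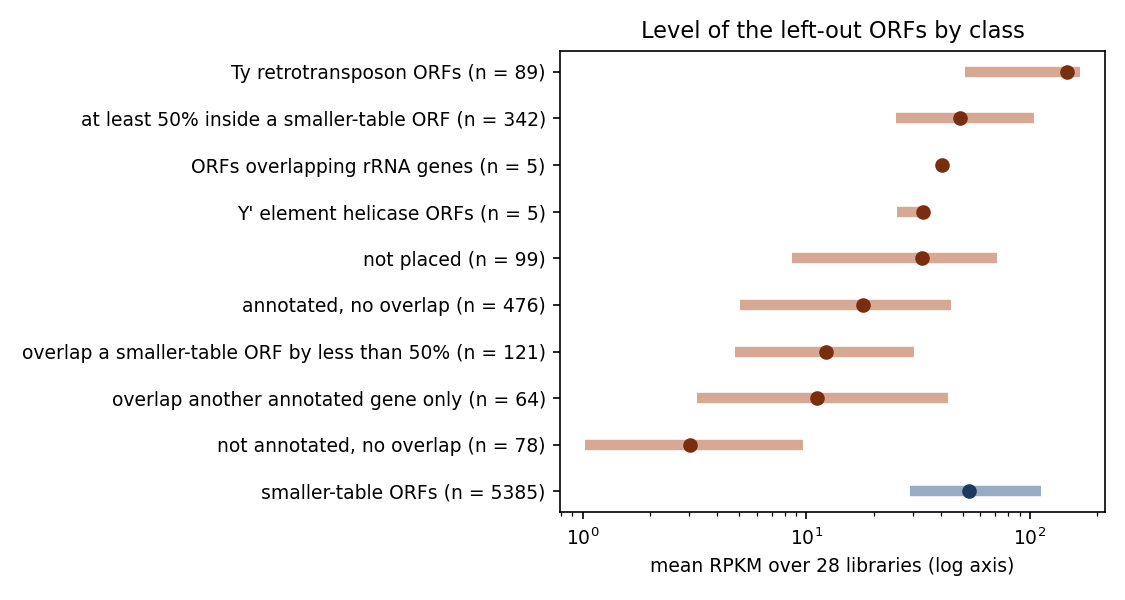
Mean RPKM over 28 libraries (log axis) of each class of left-out ORF and of the smaller-table ORFs; dots are medians and bars run between the quartiles. Ty ORFs have the highest median, 147 RPKM, and unannotated ORFs without overlap the lowest, 3.03 RPKM, against 53.5 RPKM for the smaller table.

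Among the 10 left-out ORFs of highest mean RPKM, 6 lay across a highly expressed gene and had nearly its level. YAL037C-B averaged 7006 RPKM and CDC19 6521 RPKM, and over the 28 libraries log2 CPM, counts scaled to the library total, of both had a Pearson correlation of 0.997. YKL153W averaged 5382 RPKM and GPM1, the phosphoglycerate mutase gene, 5286 RPKM. YLR076C averaged 3482 RPKM and RPL10, which encodes a ribosomal protein, 3003 RPKM. YCR013C averaged 3091 RPKM, and PGK1, the phosphoglycerate kinase gene, 3200 RPKM. YGL102C averaged 2349 RPKM and RPL28, a ribosomal protein gene, 2238 RPKM, while YDR154C, on the same strand as the cyclophilin gene CPR1, averaged 2201 RPKM and CPR1 1776 RPKM. Because strand was not used in the counting, reads of the members of such a pair cannot be told apart. The sources used here do not say whether a read in shared bases was counted for both ORFs. Levels, ratios, count shares, correlations and fold changes of overlapping ORFs may therefore include reads of the other ORF. The 3 top members that could not be placed, YLR154W-A, YLR154W-F and YPL250W-A, averaged 2732, 2567 and 2166 RPKM.

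YDR524C-B, an annotated ORF of unknown function that overlaps nothing, was the exception among the 10. It had 2435 and 4480 RPKM in H3H113N in YPD, 3948 and 3399 RPKM in H3H113N without CTR1, 3242 and 3960 RPKM in WT in YPD, and 4303 and 4194 RPKM in the parent without CTR1. In SC it had 1819, 1231 and 1293 RPKM in H3H113N, against 1704, 2352 and 1227 RPKM in WT. H3H113N and WT values overlapped in both media. In SC-lys without CCS1 it had 2022 and 1407 RPKM in H3H113N, against 3319 and 2937 RPKM in its parent. It fell in the average over the 6 H3H113N comparisons, with a log2 fold change of -0.60 ± 0.15 (SE; adjusted p = 0.00451, edgeR), and the call in SC-lys (adjusted p = 0.0497) was lost without any 1 of its 4 libraries.

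Other annotated members without overlap were also clearly read. NCW1 averaged 1608 RPKM (725 to 3142), MEO1 379 RPKM (101 to 1198), TMH11 376 RPKM (86.9 to 966) and YNL208W 935 RPKM (303 to 1742). The mitochondrial protein gene TMH11 had 605 and 806 RPKM in H3H113N in YPEG and 660 and 943 RPKM in WT in YPEG, against 221, 404 and 933 RPKM in H3H113N in SC and 211, 479 and 966 RPKM in WT in SC. Its values differed more between the libraries of SC than between genotypes. For NCW1, MEO1 and TMH11, no H3H113N comparison reached an adjusted p under 0.05 in edgeR's quasi-likelihood test.

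Over all members, ORFs mostly inside another ORF followed the level of the neighbouring gene most closely. For ORFs at least 50% inside another, the ratio of their mean RPKM to that of the overlapping ORF had a median of 0.874 (quartiles 0.581 and 1.14), and 275 of 342 had a ratio between 0.5 and 2. The median was 0.839 for the 314 on the opposite strand and 1.06 for the 28 on the same strand. The ratio was 0.275 for ORFs that overlapped by less than 50% and 0.247 for the 554 without overlap, taken against the nearest ORF of the smaller table. The Pearson correlation with that ORF over 28 libraries had a median of 0.866, 0.537 and 0.348 in these 3 sets, all of which share libraries, depth and media. Among ORFs with a mean of at least 10 counts, the median ratio was 0.887, 0.491 and 0.567 in the 3 sets. The median correlation there was 0.875, 0.661 and 0.396. Among the 53 ORFs wholly inside another, split by which of 3 equal parts of the host ORF held them, the median ratio was 0.675 for the 10 in the first part, 0.796 for the 15 in the middle and 1.37 for the 28 in the last.

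**Figure D2:**
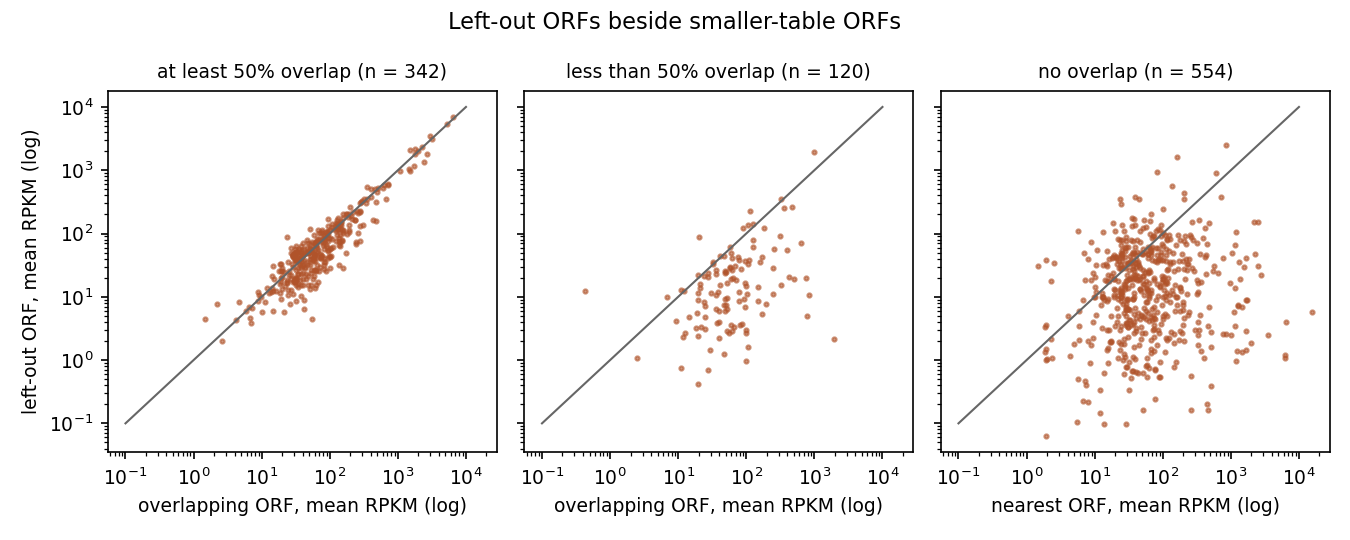
Mean RPKM of each left-out ORF (vertical log axis) against that of the smaller-table ORF it overlaps or lies nearest to (horizontal log axis); the line marks equal levels, and 1 pair whose overlapping ORF has no reads is not drawn. Points follow the line where at least 50% of the left-out ORF lies inside the other, with a median ratio of 0.874. Elsewhere they scatter mostly below it, though 61 of the 554 without overlap have a ratio over 2.

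Left-out ORFs took a larger share of the counts in H3H113N than in its parent in all 6 settings, and Ty elements made up more than 50% of the difference in each. In YPD the share was 19.6% and 11.5% in H3H113N, against 12.1% and 8.33% in WT, and the groups overlapped. Without CTR1 it was 14.1% and 15.4% in H3H113N, against 11.1% and 12.7% in its parent. In SC it was 9.66%, 9.49% and 9.60% in H3H113N, against 7.75%, 7.47% and 8.43% in WT. Apart from YPD, the groups did not overlap in any setting. The difference averaged 2.10 percentage points over the settings, with a spread between libraries of a group of 1.76 points (pooled SD). It is given as a description, without a test.

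The Ty share alone was 13.8% and 6.42% in H3H113N in YPD, against 6.24% and 2.99% in WT. In SC it was 4.44%, 3.85% and 3.12% in H3H113N, against 2.42%, 1.48% and 1.48% in WT. H3H113N lay above its parent without overlap in 5 of the 6 settings, the exception being SC-lys without CCS1, with a mean of 1.86% ± 0.480 in H3H113N and 1.52% ± 0.452 in its parent (SD, n = 2 each). Without Ty ORFs the share was 5.05% ± 0.0260 in H3H113N and 4.69% ± 0.246 in WT in YPEG, and 5.51% ± 0.0141 in H3H113N and 5.18% ± 0.202 in its parent in SC-lys without CCS1 (SD, n = 2 each), in both without overlap. It was also higher in H3H113N without CCS1 in SC, by 0.320 points, and lower in the other 3 settings, with overlap in these 4, so the difference averaged 0.0889 points. In SC-lys the difference without Ty ORFs, 0.323 points, was near that of Ty ORFs, 0.337 points. YPD replicate 1 had more Ty reads than replicate 2 in H3H113N and in WT, and what else differed between these cultures was not tested.

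Of the Ty ORFs, 60 belonged to Ty1, 20 to Ty2, 3 to Ty3 and 4 to Ty4 elements. Ty1 ORFs took 9.01% ± 4.58 of the counts in H3H113N in YPD, against 4.25% ± 2.10 in WT (SD, n = 2 each), and 3.28% ± 0.563 in H3H113N in SC, against 1.56% ± 0.428 in WT (SD, n = 3 each). Ty2 ORFs took 0.413% ± 0.0926 in H3H113N in SC, against 0.171% ± 0.114 in WT (SD, n = 3 each). In the test per ORF, 1 Ty2 ORF was called in YPD and no Ty ORF in the other 5 H3H113N comparisons. The average over the 6 called 51 of 89 higher and none lower, where 18.5% of all tested ORFs were called higher and 15.2% lower. The Ty ORFs had a median log2 fold change of 0.44 in this average. That median was 0.40 for Ty1 and 0.67 for Ty2 ORFs. The gag-pol ORF YER138C, which encodes the polyprotein of a Ty element, had 261, 242 and 201 RPKM in H3H113N in SC, against 136, 77.8 and 78.6 RPKM in WT. Its average log2 fold change was 0.44 ± 0.16 (SE; adjusted p = 0.0382, edgeR), and the call held in 12 of 26 fits that left out 1 library, with an adjusted p of 0.106 without H3H113N replicate 1 in YPD. The other gag-pol ORFs of highest level, YGR027W-B and YLR157C-B, averaged 219 and 214 RPKM over the 28 libraries. Copies share nearly all their sequence, so these ORFs are not independent of each other.

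**Figure D3:**
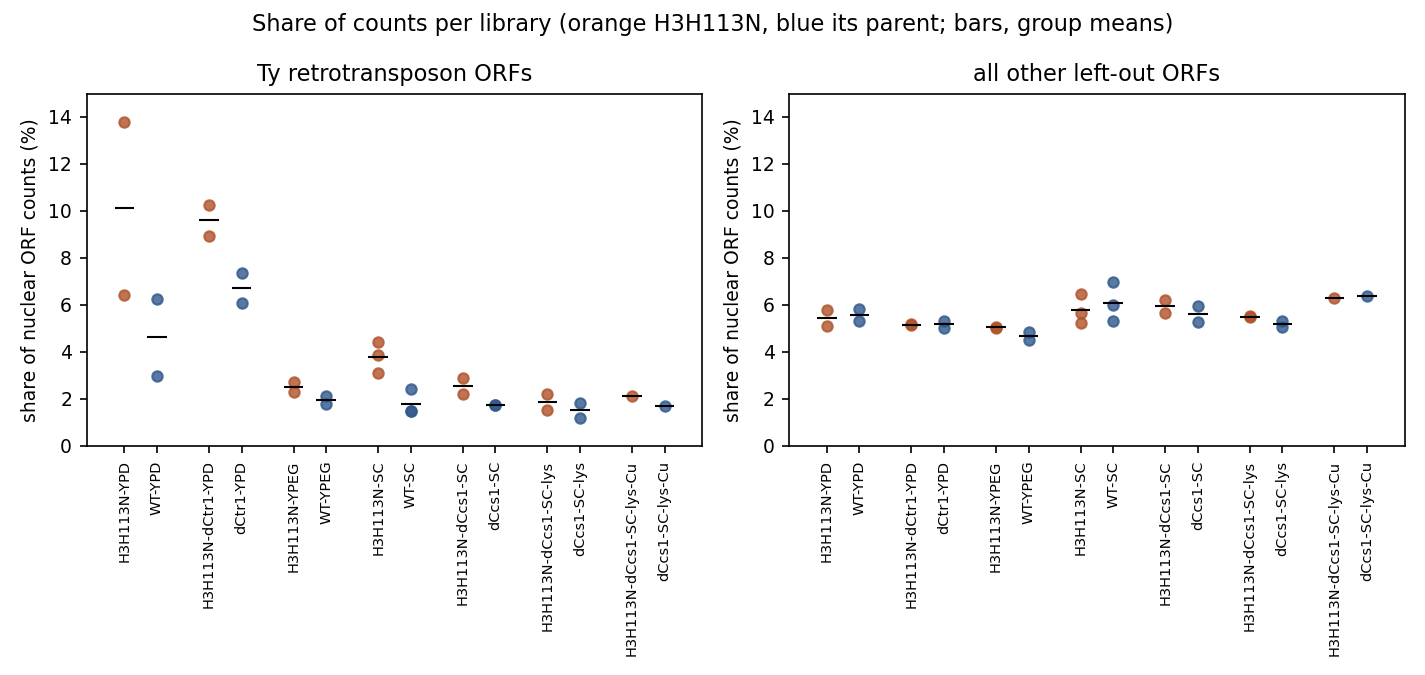
Share of nuclear ORF counts in each library, in percent, for Ty ORFs (left) and all other left-out ORFs (right); orange points are H3H113N libraries and blue points those of the parent to their right, and bars are group means. Ty shares in YPD reach 13.8% in H3H113N and 6.24% in WT, while the group means of the other left-out ORFs differ by between -0.314 and 0.365 points in the 6 replicated settings.

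Y' helicase ORFs were also higher. All 5 rose in the average over the 6 H3H113N comparisons, where 18.5% of all tested ORFs were called higher. Their median log2 fold change was 0.38, but their 50-base windows are shared between copies as well. YLL066C had 49.1 and 52.1 RPKM in H3H113N in YPEG, against 35.0 and 27.5 RPKM in WT, and its average log2 fold change was 0.38 ± 0.10 (SE; adjusted p = 0.00733, edgeR). YLL067C and YML133C averaged 35.0 and 33.2 RPKM over the 28 libraries.

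In YPD, 3 ORFs of the ribosomal DNA with high levels differed mainly between replicates. YLR154W-A had 18791 and 1598 RPKM in H3H113N in YPD, against 17015 and 1535 RPKM in WT. YLR154W-F had 16466 and 2459 RPKM in H3H113N in YPD, against 13985 and 2303 RPKM in WT. YLR154C-G, annotated within a 25S rRNA gene, had 8770 and 1240 RPKM in H3H113N in YPD, against 7833 and 1100 RPKM in WT. In each case replicate 1 was high in both strains. This did not hold for the median RPKM of the 5 ORFs within rRNA genes in H3H113N in YPD. It was 22.8 in replicate 1 and 77.1 in replicate 2. The median RPKM of the 5 ORFs within rRNA genes was higher in H3H113N without overlap in 3 settings, at 49.99 ± 38.4 in H3H113N and 9.05 ± 2.38 in WT in YPD, 78.4 ± 21.1 in H3H113N and 16.7 ± 11.9 in its parent without CTR1, and 16.3 ± 10.3 in H3H113N and 4.32 ± 0.362 in its parent without CCS1 in SC (SD, n = 2 each). It was lower without overlap in YPEG, at 16.9 ± 2.81 in H3H113N and 25.3 ± 1.16 in WT, and in SC-lys without CCS1, at 68.9 ± 21.8 in H3H113N and 114.8 ± 25.4 in its parent (SD, n = 2 each), and the groups overlapped in SC. None of the 5 passed the test in a single H3H113N comparison.

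More left-out ORFs were detected in H3H113N. With each library thinned to 1168156 nuclear counts, the expected number with a read averaged 1098 ± 13.9 in H3H113N and 1009 ± 33.6 in WT in YPD (SD, n = 2 each). It averaged 1146 ± 22.1 in H3H113N and 1069 ± 7.90 in WT in SC (SD, n = 3 each), and 1152 ± 5.85 in H3H113N and 1058 ± 2.39 in its parent in SC-lys without CCS1 (SD, n = 2 each). In all 6 settings the groups did not overlap, and the mean difference was 78.4 ORFs. ORFs of the smaller table, nearly all of which were detected anyway, differed by 40.4 on average, also without overlap in all 6. Before thinning, 1082 to 1252 left-out ORFs had a read in a library.

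Few single left-out ORFs passed the test in any 1 comparison apart from SC-lys, and the share called was below that of the smaller table in all 6. The fit behind these counts did not use the replicate numbers. A fit with a block for same-numbered libraries called more left-out ORFs in each of the 6, as given in the closing section. The test was edgeR's quasi-likelihood test over 6592 ORFs, 1210 of them left-out ORFs, after ORFs averaging under 1 RPKM were dropped, called at a Benjamini-Hochberg adjusted p under 0.05. In YPD, 8 of the 1210 were higher in H3H113N than in WT and 0 lower, where 1.24% of all tested ORFs were called, 1.05% higher and 0.197% lower. In YPEG, 5 were higher and 1 lower (1.03% of all called, 0.925% higher and 0.106% lower), and in SC 12 were higher and 1 lower (1.59% of all, 1.2% higher and 0.394% lower). Without CTR1 7 were higher and 0 lower (2.18% of all, 1.81% higher and 0.379% lower), and without CCS1 in SC 8 were higher and 0 lower (1.24% of all, 1.02% higher and 0.228% lower). Without CCS1 in SC-lys, 56 were higher and 35 lower (10.7% of all, 5.16% higher and 5.57% lower). No left-out ORF fell in YPD, without CTR1 or without CCS1 in SC, but at an unadjusted p under 0.05 in either direction there were 184, 130 and 125 left-out ORFs, and DESeq2 called 1, 3 and 0 lower. In either direction, 0.661% of left-out ORFs were called in YPD, against 1.38% of the smaller table, 0.496% against 1.15% in YPEG and 1.07% against 1.71% in SC. Without CTR1 it was 0.579% against 2.55%, without CCS1 in SC 0.661% against 1.38%, and in SC-lys 7.52% against 11.5%, a difference that was not tested.

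These counts rested on few libraries. Leaving out any 1 of the 4 libraries gave 0 to 5 calls in YPD, 0 in YPEG, 0 or 1 without CTR1 and 20 to 40 in SC-lys. Without CCS1 in SC, 0 were called without either library of the parent, 1 without H3H113N replicate 2 and 12 without H3H113N replicate 1. In SC, 2 were called without WT replicate 2, 4 without H3H113N replicate 2, 6 without H3H113N replicate 3 and 21 without H3H113N replicate 1. Of the 7 called without CTR1, 4 lay on chromosomes III and V, where whole-chromosome levels differed by more than 0.3 (log2) between the groups, and centring each chromosome gave 1 call. The same centring gave 6 calls in place of 13 in SC and 3 in place of 8 without CCS1 in SC, where the shifted chromosomes were II and V, and I, II and XI. Fitted to the compared groups alone, YPEG gave 65 calls and the other 5 comparisons gave 0. Of 40 calls of the members named by rule in single H3H113N comparisons, 5 held without any 1 library, all in SC-lys without CCS1.

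Averaged over the 6 comparisons, left-out ORFs were more often higher than lower. Of 1210, 316 were higher (26.1%) and 85 lower (7.02%), against 905 higher (16.8%) and 919 lower (17.1%) of 5374 smaller-table ORFs. Among all tested ORFs 33.8% were called, 18.5% higher and 15.2% lower. The median log2 fold change was 0.26 for left-out ORFs, -0.028 for the smaller table and 0.0037 for all ORFs. In the single comparisons the median of left-out ORFs lay between 0.15 and 0.29, and with groups at 0 reads set to their bound against a floor of 3 reads it lay between 0.15 and 0.28. Scaling to library totals in place of TMM put the median of all ORFs at 0.20 and that of left-out ORFs at 0.45, with 483 left-out ORFs higher and 34 lower, against 1514 higher and 384 lower of the smaller table. In SC-lys that scaling gave 89 left-out ORFs higher and 19 lower, against 504 and 146 of the smaller table. The balance of higher and lower calls in either table therefore depends on the scaling.

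Classes differed in this average, where 18.5% of all tested ORFs were called higher and 15.2% lower. ORFs mostly inside another ORF were near these shares, higher in 51 and lower in 49 of 342, with a median log2 fold change of -0.00096. Unannotated ORFs without overlap were higher in 23 and lower in 0 of 57 tested, with a median of 0.88, or 0.74 with groups at 0 reads at their bound. Of the 78 in this class, only those averaging at least 1 RPKM were tested. Some near that floor may have passed it only through the genotype where they were high. What this adds to the split was not tested. Annotated ORFs without overlap were higher in 123 and lower in 25 of 449, with a median of 0.29. ORFs overlapping by less than 50% were higher in 33 and lower in 4 of 116, and those overlapping another annotated gene higher in 17 and lower in 2 of 58. Unplaced ORFs were below the shares of all ORFs, higher in 11 and lower in 5 of 89. ORFs within rRNA genes were higher in 2 and lower in 0 of 5.

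The fold change followed the level in both tables. Under 5 RPKM, the median average log2 fold change was 1.05 in 175 left-out ORFs and 1.73 in 69 ORFs of the smaller table, or 0.98 and 1.47 with groups at 0 reads at their bound. Between 5 and 20 RPKM it was 0.43 in 313 and 0.29 in 628, and between 20 and 50 RPKM 0.18 in 325 and 0.039 in 1833. Between 50 and 100 RPKM it was 0.028 in 173 left-out ORFs and -0.11 in 1322 of the smaller table, and over 100 RPKM -0.053 in 224 and -0.26 in 1522. Low level went with a higher fold in both tables, and left-out ORFs held more low ORFs. Whether the remaining gap within a range of level differs from 0 was not tested. ORFs near the floor of 1 RPKM may have passed it only through the genotype where they were high. What this adds to the folds under 5 RPKM was not tested.

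**Figure D4:**
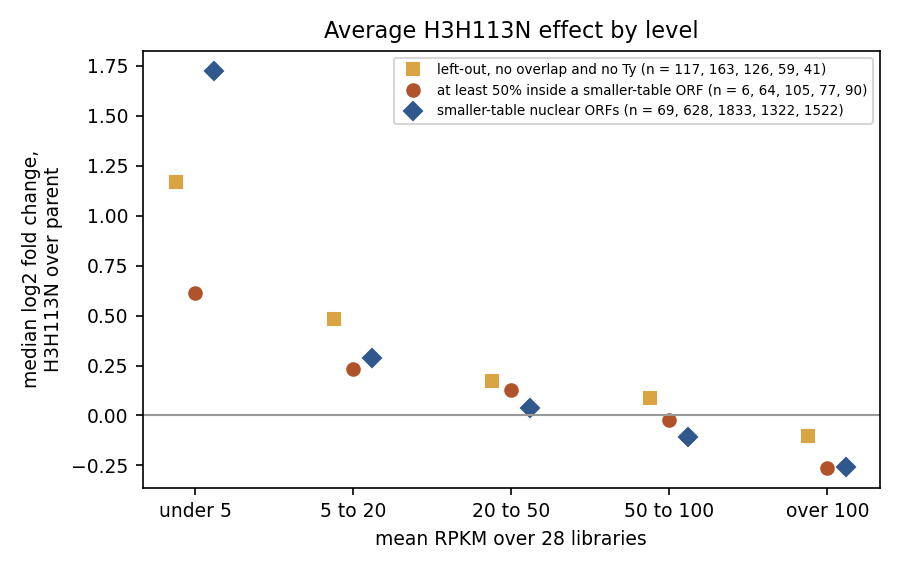
Median log2 fold change of H3H113N over its parent, averaged over 6 comparisons, by mean RPKM over 28 libraries, for left-out ORFs with no overlap, left-out ORFs at least 50% inside another, and smaller-table ORFs. All 3 sets fall from the lowest to the highest range, the smaller-table ORFs between 1.73 and -0.26.

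In the average over the 6 comparisons, left-out ORFs inside another ORF mostly changed in its direction. Of the 100 called in the average, 93 had an overlapping ORF called in the same direction and 0 in the opposite one. The 2 log2 fold changes were within 0.5 of each other in 96.8% of the 342 pairs. In SC-lys without CCS1, 27 of 34 called members had an overlapping ORF called in the same direction. The overlapping ORF was not called for 3 of 4 called members in SC, 2 of 3 without CCS1 in SC and 1 of 3 without CTR1. In WT in YPEG against SC it was not called for 18 of 45, and 66.1% of the pairs were within 0.5. No pair was called in opposite directions in any of these comparisons. Strand was not used in the counting, and such pairs may share reads. Their agreement therefore does not show that the left-out ORF changed by itself.

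YKR033C lies across DAL80, a repressor of nitrogen catabolic genes, on the other strand. It had 25.2 and 27.0 RPKM in H3H113N in YPEG, against 3.12 and 4.04 RPKM in WT, a log2 fold change of 2.87 ± 0.65 (SE; adjusted p = 0.0427, edgeR), and DAL80 had 2.78. The call was lost without any 1 of the 4 libraries. YHR137C-A lies wholly inside ARO9, an aromatic aminotransferase gene, and had 53.7, 34.2 and 22.1 RPKM in H3H113N in SC, against 2.10, 6.49 and 7.09 RPKM in WT. Its log2 fold change there was 2.82 ± 0.58 (SE; adjusted p = 0.0192) and that of ARO9 2.71, and the call was lost without H3H113N replicate 1, WT replicate 1 or WT replicate 2. These 2 pairs had Pearson correlations of 0.978 and 0.991 over the 28 libraries.

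Members that fell included ORFs across other genes, some of them highly expressed. YOR248W, on the strand of the cell wall protein gene SRL1, had 94.5 and 65.8 RPKM in H3H113N without CCS1 in SC-lys, against 493 and 421 RPKM in its parent, a log2 fold change of -2.82 ± 0.33 (SE; adjusted p = 8.76e-05, edgeR), where SRL1 had -2.93. YLR232W, across BNA5 of the NAD synthesis pathway, had 10.2 and 6.31 RPKM in H3H113N there, against 43.5 and 50.4 RPKM in the parent. YGL123C-A, inside the ribosomal protein gene RPS2, had an average log2 fold change of -0.95 ± 0.12 (SE), and RPS2 had -0.91. The unplaced YLL044W had -0.92 ± 0.12 (SE). Beside them and YDR524C-B, 2 named annotated members without overlap fell in single comparisons. YGK1, a deoxynucleotidase gene, had 29.8 and 45.5 RPKM in H3H113N in YPEG, against 79.6 and 91.0 RPKM in WT. The lysophospholipid acyltransferase gene ALE2 had 146, 221 and 207 RPKM in H3H113N in SC, against 244, 294 and 260 RPKM in WT. The YGK1 call was lost without any 1 of its 4 libraries, and the ALE2 call held only without WT replicate 3 among its 6 (adjusted p 0.0563 to 0.109 without another).

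Without CCS1, YOR379C had a larger fold change than the ORF it lies in, AMF1. In the average over the 6 comparisons both were called higher, AMF1 with a log2 fold change of 0.32 (adjusted p = 0.0477, edgeR). YOR379C is 98.2% inside AMF1, an ammonium transporter gene, on the other strand. It had 10.2 and 10.5 RPKM in H3H113N without CCS1 in SC, against 0 and 1.58 RPKM in its parent. The ratio was 18.1, with a counting interval between 2.81 and 759 (exact, 95%), while AMF1 had a log2 fold change of 0.00059. In SC-lys it had 28.02 and 23.6 RPKM in H3H113N, against 6.90 and 7.23 RPKM in its parent, a log2 fold change of 1.55 ± 0.42 (SE; adjusted p = 0.0232, edgeR), and AMF1 had 0.58 (adjusted p = 0.255). The YOR379C calls in SC and in SC-lys were each lost without any 1 of their 4 libraries. The contrast with AMF1 was picked out after its values were seen.

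Few left-out ORFs were called repeatedly: 1 was called in 5 of the 6 H3H113N comparisons, 1 in 4, 3 in 3, 7 in 2 and 101 in 1, and the remaining 1097 in none. In 2 or more comparisons, 12 of 1210 left-out ORFs (0.992%) were called, against 151 of 5374 ORFs of the smaller table (2.81%). YPR077C, called in 5, lies 95.7% inside YPR078C, a gene of unknown function on the same strand. It had 8.10 and 11.5 RPKM in H3H113N in YPD, against 0.635 and 0 RPKM in WT. In SC it had 8.35, 16.1 and 8.07 RPKM in H3H113N, against 1.47, 1.89 and 0 RPKM in WT, and in SC-lys without CCS1 35.1 and 33.7 RPKM in H3H113N, against 2.90 and 4.05 RPKM in its parent. H3H113N lay above its parent in every library of all 6 settings. The log2 fold change in SC-lys was 2.97 ± 0.41 (SE; adjusted p = 0.000424, edgeR), which held without any 1 of the 4 libraries, whereas in YPEG it was lost without any 1 of them. YPR078C itself had 1.86 in SC-lys and 2.53 in YPD. With added copper YPR077C had 17.3 RPKM in the 1 H3H113N library and 1.63 RPKM in the 1 parent library.

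GID10 (YGR066C), called in 4 comparisons, encodes an N-recognin, a protein that recognises substrates of the Pro/N-degron pathway for degradation. It had 12.9 and 18.1 RPKM in H3H113N in YPD, against 2.69 and 1.99 RPKM in WT, a log2 fold change of 2.53 ± 0.47 (SE; adjusted p = 0.0119, edgeR). Without CTR1 it had 14.0 and 12.3 RPKM in H3H113N, against 2.83 and 2.49 RPKM in its parent. Without CCS1 in SC-lys it had 71.1 and 68.0 RPKM in H3H113N, against 9.22 and 9.65 RPKM in its parent, a log2 fold change of 2.57 ± 0.41 (SE; adjusted p = 0.000948). Only in YPEG did the groups overlap, with 17.5 and 25.02 RPKM in H3H113N and 24.0 and 14.2 RPKM in WT. In SC it had 19.9, 37.0 and 30.7 RPKM in H3H113N, against 5.91, 9.62 and 17.3 RPKM in WT (adjusted p = 0.104). The SC-lys call held without any 1 of its 4 libraries, the call without CTR1 was lost without any 1 of them, and those in YPD and without CCS1 in SC each held in 1 of 4 such fits (adjusted p up to 0.227 and 0.294).

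The members called in 3 comparisons were YMR057C, YLL047W and YBL065W. YMR057C is unannotated, overlaps nothing and lies 92 bases from FET3, a multicopper oxidase gene of iron uptake, but its level had a Pearson correlation of -0.30 with that of FET3. It had 8.36 and 8.001 RPKM in H3H113N without CCS1 in SC, from 14 reads, against 0 reads in its parent, which is at least 5.28-fold higher. In SC-lys it had 19.1 and 19.8 RPKM in H3H113N, against 3.87 and 3.55 RPKM in its parent, a log2 fold change of 2.06 ± 0.45 (SE; adjusted p = 0.00753, edgeR), lost without either library of the parent. YLL047W, across RNP1, had 16.3 and 15.4 RPKM in H3H113N in YPD, against 2.46 and 1.01 RPKM in WT, a call lost without any 1 of the 4 libraries. RNP1 was itself called higher there, with a log2 fold change of 3.00 (adjusted p = 0.0454, edgeR). It had 2.89 without CTR1 and 1.90 in SC-lys without CCS1, where it was not called. YBL065W, which shares 44.3% of its bases with SEF1, had 47.3 and 27.7 RPKM in H3H113N in SC-lys without CCS1, against 3.13 and 8.20 RPKM in its parent. With each chromosome centred its 3 calls were lost, with adjusted p-values between 0.0676 and 0.279 (edgeR). SEF1 was itself called higher in these 3 comparisons. Its log2 fold change was 0.92 in SC, 1.43 without CCS1 in SC and 1.27 without CCS1 in SC-lys.

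Several members at very low level had reads almost only in H3H113N within a comparison. YGL138C, of unknown function, had 51 reads in the 2 H3H113N libraries in YPD and 0 in the 2 of WT, which is at least 15.3-fold higher, and 24 reads in H3H113N in SC against 0 in WT, at least 9.75-fold higher. In each setting every H3H113N library lay above every parent library, and the average call held without any 1 of the 26 libraries, though in SC the call was lost without any 1 of the 6, with the paired replicate block (adjusted p = 0.0797) and with each chromosome centred (adjusted p = 0.0521), and in YPD it held in 1 of 4 fits that left out a library and not with the block (adjusted p = 0.0532). YJL027C had 50 reads in H3H113N without CCS1 in SC-lys and 0 in its parent, at least 13.8-fold higher, and the unannotated YKL165C-A 20 and 0, at least 5.52-fold higher. YCL048W-A, a paralog of YDR524C-B, had 35 reads in H3H113N without CTR1 and 2 in its parent, a ratio of 17.9 (exact 95% counting interval 4.605 to 154), and lies on chromosome III. Its call held only without H3H113N replicate 1, and that of YKL165C-A only without H3H113N replicate 2. The bounds use 3 reads over the group as the floor, and intervals and bounds cover counting error only. YGL138C, YKL165C-A and YJL027C averaged 1.88, 2.13 and 2.97 RPKM over the 28 libraries, near the filter of 1 RPKM. They may have passed it only through the genotype where they were high. Their calls and the separation of their libraries are therefore no independent support.

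DPA10, annotated as a putative mitochondrial protein, changed with medium and genotype. It had 708 and 222 RPKM in H3H113N in YPEG and 82.6 and 58.7 RPKM in WT in YPEG, against 8.82, 13.0 and 4.55 RPKM in H3H113N in SC and 1.04, 0 and 0 RPKM in WT in SC. Its average log2 fold change over the 6 comparisons was 3.83 ± 0.54 (SE; adjusted p = 5.36e-05, edgeR). The values of the 2 H3H113N libraries in YPEG are far apart, and WT in SC held 1 read in all.

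The comparisons that did not involve H3H113N called few left-out ORFs, apart from the media. Without CTR1 against WT in YPD, 0 of 1210 were called by edgeR, 40 had an unadjusted p under 0.05 and DESeq2 called 1, where 0.0455% of all tested ORFs were called. Without CCS1 against WT in SC, 0 were called, 37 had an unadjusted p under 0.05 and DESeq2 called 0, where 0.0152% of all were called. WT in YPEG against WT in SC gave 50 higher and 56 lower (11.5% of all called, 6.75% higher and 4.72% lower), or 75 higher and 31 lower with library totals. That count fell to 38 and 53 without WT replicate 1 or 2 in YPEG and to 68 without WT replicate 2 in SC, and was 159 without WT replicate 3 in SC.

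In that comparison YHR137C-A, inside ARO9, had 788 and 652 RPKM in WT in YPEG, against 2.10, 6.49 and 7.09 RPKM in WT in SC, a log2 fold change of 7.08 ± 0.61 (SE; adjusted p = 5.26e-07, edgeR), and ARO9 had 6.65. TYC1, an inhibitor of the anaphase-promoting complex, had 22 reads in WT in YPEG and 0 in WT in SC, at least 6.37-fold higher. YJR115W, of unknown function, had 2.60 and 3.37 RPKM in WT in YPEG, against 25.7, 38.7 and 109 RPKM in WT in SC, and YGR139W had 1.68 and 1.27 RPKM in YPEG, against 110, 8.31 and 7.78 RPKM in SC. Without WT replicate 1 in SC, the log2 fold change of YGR139W was -2.50 (adjusted p = 0.246), against -5.06 with all libraries. The TYC1 call held only without WT replicate 1 in YPEG, and the YJR115W call was lost without that library (adjusted p = 0.0819).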

How the data were processed

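The authors deposited whole-number read counts and RPKM values per ORF and library in their full table. Per the labels, strand was not used, and per the submitters' processing notes TopHat2 2.0.9 and build R64 (sacCer3) were used. The counting tool and annotation are not given in the sources used here. Deposited RPKM equalled counts divided by deposited ORF length and by the library's counted reads.

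ORFs were matched to RefSeq R64. Unmatched ones were placed where strand, order of names and length allowed a single frame from start to stop codon. This put 473 of 474 placed annotated members and 4897 of 4901 placed smaller-table ORFs at their annotated site. edgeR 4.0.16 (R 4.3.3, TMM, quasi-likelihood) was fitted to the 26 replicated libraries together, a mean for each of 12 groups, after dropping ORFs under 1 RPKM on average. The fit was tested on simulated data first. Same-numbered SC libraries of H3H113N and WT deviated together (correlations 0.620, 0.508 and 0.812), so the numbers pair them there. The main fit did not use this pairing. Class shares and detection are given as descriptions without a test, in place of the planned permutation test. Alternatives were DESeq2, limma on log2(RPKM + 1), other filters and scalings, chromosome centring, a replicate block and leaving out each library.

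Members and lists were chosen with earlier results of these data known. Named were the 10 members of highest mean RPKM, up to 2 higher and 2 lower per comparison by fold change among calls whose groups did not overlap, members called in at least 4 H3H113N comparisons, and the 3 highest of each list. No member had a symbol of the families PAU, COS, DUP, FLO, HXT or ASP.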

Additional observations from a re-analysis of the deposited data

How the results depend on the processing

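Calls below count left-out ORFs in each comparison. With library totals in place of TMM, H3H113N gave 16 calls in YPD, 0 in YPEG, 33 in SC, 17 without CTR1 and 13 without CCS1 in SC. Only the groups compared gave 0 calls in YPD, SC, SC-lys, without CTR1 and without CCS1 in SC, 65 in YPEG and 10 between WT media. Chromosome centring gave 6 in SC, 1 without CTR1 and 3 without CCS1 in SC. limma on log2(RPKM + 1) gave 16 in YPD, 0 in YPEG, 108 in SC, 13 without CTR1, 20 without CCS1 in SC and 1 for the CTR1 deletion. DESeq2 gave 25 in YPD, 14 in YPEG, 26 in SC, 24 without CTR1, 13 without CCS1 in SC and 1 for the CTR1 deletion. With a replicate block there were 24 in YPD, 32 in YPEG, 19 in SC, 36 without CTR1, 20 without CCS1 in SC, 147 in SC-lys, 1 for each deletion against WT and 168 between WT media. Same-numbered libraries of H3H113N and its parent also deviated together in YPD (correlation 0.693), without CCS1 in SC (0.547) and in SC-lys (0.594). The correlation was 0.258 without CTR1 and 0.121 in YPEG. For the CTR1 deletion against WT it was -0.514, and for the CCS1 deletion 0.652 and -0.508. With 2 libraries in a group, a single correlation cannot show whether the numbers pair them, and the main fit does not use the numbers. The crossed numbering of the CTR1 deletion, an alternative chosen after seeing the data, gave 1 call, as did the numbering as labelled.

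Leaving out 1 library gave 0 to 5 calls in YPD, 0 in YPEG, 2 to 21 in SC, 0 to 1 without CTR1, 0 to 12 without CCS1 in SC, 20 to 40 in SC-lys, 0 to 1 for the CTR1 deletion, 0 for the CCS1 deletion and 38 to 159 between WT media. The average over 6 comparisons gave between 320 and 518 calls under the alternatives tried. The causes of these differences were not tested, except that fewer libraries entered some fits.

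The difference in count share was -0.220 points for unannotated members alone and 0.0889 without Ty ORFs (chosen after seeing the data), and leaving out 1 library gave 1.43 to 2.77. The difference in detected ORFs was 38.1 for unannotated members, 52.2 without overlapping ones, and 73.2 to 83.7 without 1 library. Of 1600 alternative values for called named members, 0 changed direction. With DESeq2, 74 of 79 stayed past the threshold, with each chromosome centred 66 of 80, and with a replicate block 76 of 80. Library totals and limma each kept 73 of 80, no filter 79 of 80 and the higher filter 69 of 71. With only the groups compared, 5 of 50 stayed past it. When 1 library was left out, calls of single H3H113N comparisons were lost more often than those of the average. With 2 libraries in most groups, low counts limit single ORFs most.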
